A study of Mus musculus with 12 samples.

Results

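The genes described here are those for the proteins of the cytosolic ribosome, in the hypothalamus of WT and *Gpr75*-/- mice on chow or on a high-fat diet (HFD). They were chosen by name alone: protein-coding genes whose symbol begins with Rpl or Rps followed by a number, or that are called *Rpsa* or *Rplp*, without the Rps6k kinases and without names that mark a processed copy. The rule took 83 of 16855 genes listed on chow and 82 of 16744 listed on the HFD. The 82 genes of the HFD are all among the 83 of chow, and *Rps10* was the gene listed on chow alone. Of the 83, 34 were named for the small subunit and 49 for the large one. Of 80 genes known to encode the proteins of the mouse ribosome, the rule held 77 on chow and 76 on the HFD. *Fau* and *Rack1*, which have other names, are given separately. The 6 genes taken by name beyond the 80 were the paralogs *Rpl7l1*, *Rpl22l1*, *Rpl36al*, *Rps27l* and *Rps27rt*, and *Rps19bp1*, whose protein binds a ribosomal protein and is not itself one.

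Hypothalamus RNA was sequenced from 12 male C57BL/6J mice, 3 in each of 4 groups: WT mice on chow, *Gpr75*-/- mice on chow, WT mice on the HFD and *Gpr75*-/- mice on the HFD. The HFD began at 6 weeks of age and lasted 2 weeks, and all mice were 8 weeks old at sampling. The *Gpr75*-/- allele is a germline CRISPR/Cas9 frameshift near the start of the coding sequence, present in every cell. The mRNA can still be made, so the *Gpr75* level does not check the genotype labels. The authors' mean of *Gpr75* was 4.06 log2 CPM (counts scaled to the size of the library) in WT and 4.62 in *Gpr75*-/- mice on chow, and 4.31 and 4.21 on the HFD. The columns used here hold 1 mean per gene and group and no value of a single mouse. They do not give the spread between mice, so no difference below was tested, and each is a description of the authors' means. The tables' mean normalized counts summed to 18280462 per mouse on chow and 19420111 on the HFD.

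Each cytosolic ribosome has a small subunit, which reads the mRNA, and a large subunit, which joins the amino acids. Nearly all of its proteins are needed in a single copy per ribosome, and their genes, which are scattered over the genome, are transcribed at high and similar rates. Their mRNAs begin with a run of pyrimidines, the 5′ terminal oligopyrimidine (TOP) motif, through which the kinase complex mTORC1, a sensor of nutrients and growth signals, sets their translation. The genome also holds many processed copies of these short mRNAs, most of them pseudogenes, so that reads can match more than 1 place.

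The pyrimidine run was visible at some of the annotated start sites. RefSeq promoter windows on build GRCm38.p6, from 250 bases before to 50 bases after each start, were matched by symbol to 63 of the genes, which had 74 promoters. The letters CTTTC lay on the transcript strand within 20 bases of the start in 25.7% of these promoters and in 5.49% of all 32851 promoters of the table. On the opposite strand the shares were 5.41% and 4.86%, and on either strand 29.7% and 10.2%. The letters CTTCCG, which are part of the motif of ETS family factors and can share end letters with CTTTC, stood anywhere in the 300 bases on either strand in 62.2% of the member promoters and in 16.9% of all. The windows below, of 30 bases each and printed 5′ to 3′ on the transcript strand, belong to genes from the top, middle and bottom of the order of genotype differences on the HFD, and the capitals mark the unbroken run of C and T that holds CTTTC:
Rpl7a: caaTTCCCTCTTCTTTCTTTCTCCagcagc
Rpl13a: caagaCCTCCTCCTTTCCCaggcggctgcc
Rpl38: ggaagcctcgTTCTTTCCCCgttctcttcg
Rpl4: caagtgacaagTCTTTCCTTTTCCTgtggg
Rpl13: gacgtcaCTTCCCTTTCgcctgattttgat
Rpl15: aaagCCTTCTTCCTTTCCTCTggcggcagc
They lie at chr2:26910790-26910819 on the plus strand (*Rpl7a*), chr7:45128719-45128748 on the minus strand (*Rpl13a*), chr11:114668568-114668597 on the plus strand (*Rpl38*), chr9:64173358-64173387 on the plus strand (*Rpl4*), chr8:123102327-123102356 on the plus strand (*Rpl13*) and chr14:18270965-18270994 on the minus strand (*Rpl15*). The run was 21 bases long in *Rpl7a* and 17 in *Rpl15*, the gene with the highest and one of the genes with the lowest differences on the HFD. The 18 genes with CTTTC in this window had a median difference of 0.04 on the HFD and the 42 matched genes without it one of 0.05, on the log2 scale.

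As a group these genes were abundant in the hypothalamus. Divided by transcript length, their median level on chow was 57.2 CPM per kilobase, against 7.51 for all genes listed, and on the HFD it was 59.9 against 7.53. The middle portion of the genes, from the lower to the upper quartile, lay between 35.4 and 79.2 CPM per kilobase on chow. The highest level on both diets was that of *Rpl13*, a protein of the large subunit, at 173.5 on chow and 172.9 on the HFD. It was followed on chow by *Rpl41*, which encodes a very short peptide, at 149.7, by *Rpl4* at 148 and *Rpl3* at 145.5, both core proteins of the large subunit, and by *Rps29* of the small subunit at 144.8. The same 5 genes led on the HFD.

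Among the genes with the lowest levels, *Rps10* stood at 2.42 CPM per kilobase on chow, *Rpl36al* at 2.61, *Rpl24* at 3.05, *Rpl13a* at 4.72 and *Rpl7a* at 5.44, so that the range over the group was 71.8-fold. On the HFD the 5 lowest were *Rpl24* at 2.94, *Rpl36al* at 3.16, *Rpl13a* at 5.67, *Rpl7a* at 8.11 and *Rps20* at 9.35. *Rps20* and *Rps15a*, at 9.32 and 10.9 on chow, were low per length, and their longest principal annotated transcripts are 3706 and 5179 bases long, against a median of 878 bases for the group. Low and high genes alike could share sequence with other genes. Only 26.5% of the 100-base stretches of *Rpl7a* are found in no transcript of another gene, and 37 other genes share the remainder. For *Rpl24* the unique share is 19.9% and for *Rpl13a* 44.8%, against a median of 68.2% over the group. It is 78.3% for *Rpl36al*, 52.3% for *Rps10* and 94.1% for *Rps20*, and among the highest genes 21.1% for *Rpl13* and 20.6% for *Rpl3*. Over the group the level per length did not go with the unique share (Spearman's rho -0.02 over 83 genes on chow and -0.03 over 82 on the HFD, as a description). How the authors' counting treated reads that match several genes is not given in the sources used here, so the levels of genes with a low unique share are uncertain.

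The first comparison asked what loss of GPR75 did to these genes on chow. The group as a whole was centred on 0. Differences below are log2 values, the *Gpr75*-/- mean minus the WT mean, for the 80 genes with a mean normalized count of at least 50. *Rps10*, *Rpl24* and *Rpl36al* were under it on chow. The median difference on chow was 0 for these genes and 0 for all 14240 genes at this level, and the means were -0.00 and 0.00. The mean was higher in *Gpr75*-/- mice for 28 genes, lower for 27 and equal to the deposited 2 decimals for 25. Over all genes, 43.3% were higher and 40.4% lower. At least 1.1-fold higher were 4 genes of 80, 5%, against 12.4% of all genes, and at least 1.1-fold lower were 5, 6.25%, against 12.7% of all genes. The group's shares past 1.1-fold were thus under those of all genes in both directions. With the level set at 500 counts or more, 6.12% of all genes were at least 1.1-fold higher and 7.55% lower, and of 63 ribosomal protein genes 1 and 3.

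The gene with the highest difference on chow was *Rpl30*, whose protein belongs to the large subunit. Its means were 18.9 CPM in WT and 23.3 CPM in *Gpr75*-/- mice, a difference of 0.30, and rounding of the deposited means alone allows 0.26 to 0.34. *Rpl7a* (0.18), *Rps12* (0.18), *Rpl41* (0.15), *Rpl13a* (0.14) and *Rps3* (0.11), the mRNA entry protein of the small subunit, came next. The lowest was *Rpl13*, the gene with the highest level per length, at 143.8 CPM in WT and 123.2 CPM in *Gpr75*-/- mice, a difference of -0.22 with a rounding range from -0.28 to -0.17. *Rpl23a*, a protein at the exit of the peptide tunnel, had -0.19, *Rps2* -0.18, *Rpl17* -0.18, *Rps15* -0.17 and *Rpl29* -0.14. High and low ends both held proteins of either subunit.

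On the HFD the group as a whole lay above 0. The genes had a median difference of 0.05 and a mean of 0.07, with a standard error from rounding of 0.0021. All 14326 genes at this level had a median of 0 and a mean of 0.01. The *Gpr75*-/- mean was higher for 57 of 80 genes, lower for 11 and equal for 12. Over all genes, 46.3% were higher and 34.4% lower, and the group's shares were 71.3% and 13.8%. At least 1.1-fold higher were 13 genes, 16.3%, against 11.8% of all genes. None was at least 1.1-fold lower, against 8.99% of all genes. With the level set at 500 counts or more, 9 of 66 ribosomal protein genes, 13.6%, and 4.30% of all genes were at least 1.1-fold higher, and 0 of 66 and 5.38% lower. In terms of all CPM, the genes together held 0.431% in WT and 0.448% in *Gpr75*-/- mice on the HFD, and 0.425% and 0.423% on chow. For most single genes the difference was no more than 1 rounding step of the deposited means, which was 0.05 at the median gene. The lean of the group was not tested against the spread between mice.

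**Figure D1:**
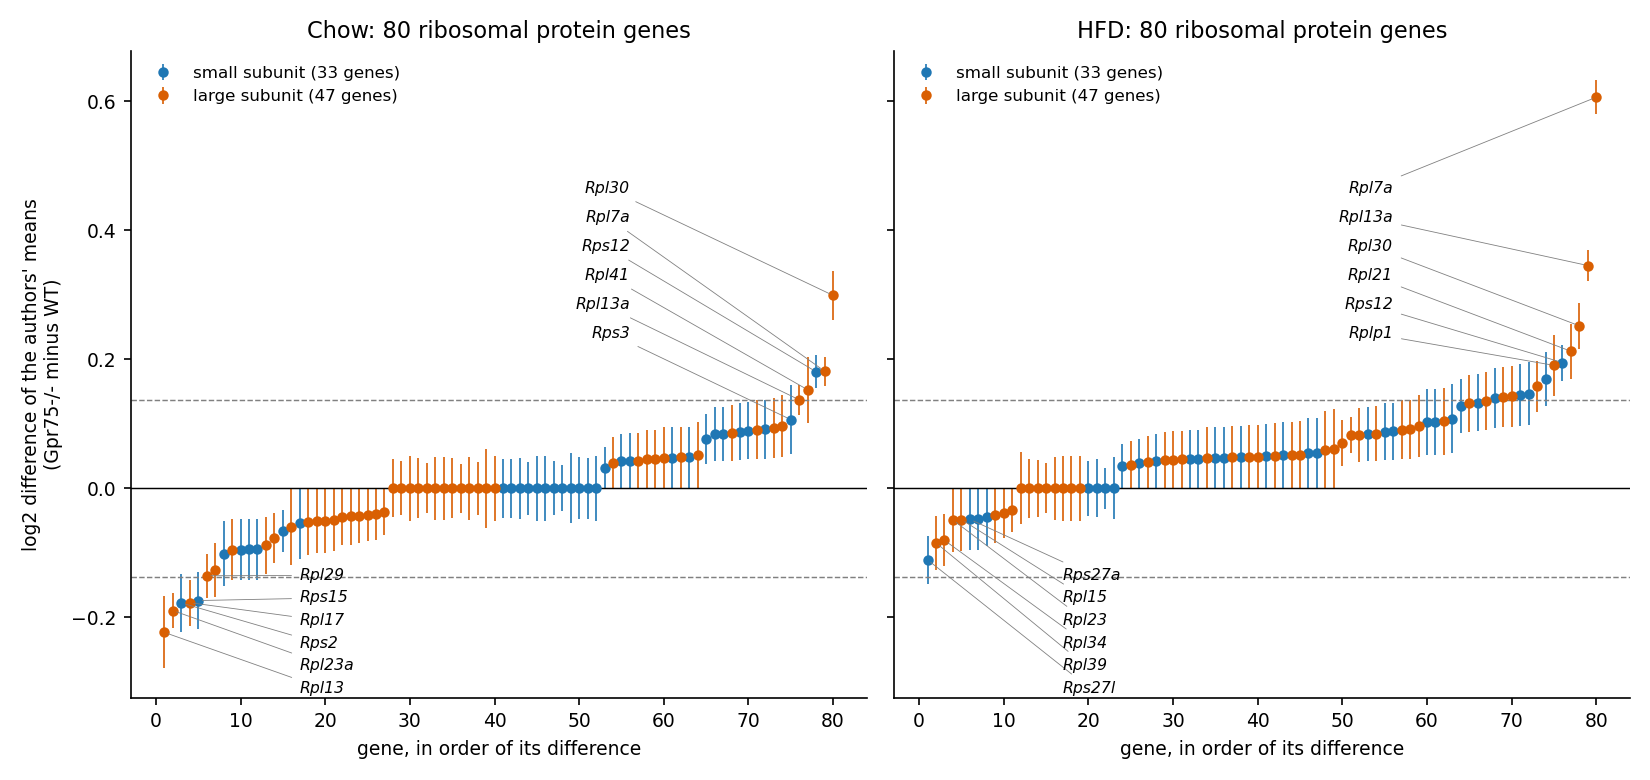
Log2 difference of the authors' means, *Gpr75*-/- minus WT (y axis), for the 80 ribosomal protein genes at the level filter on each diet, in ascending order (x axis), coloured by subunit. Bars show the range that rounding of the deposited means allows, not the spread between mice, dashed lines mark 1.1-fold, and the 6 lowest and 6 highest genes are named. On chow 28 genes are above 0 and 27 below, and on the HFD 57 are above and 11 below.

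**Figure D2:**
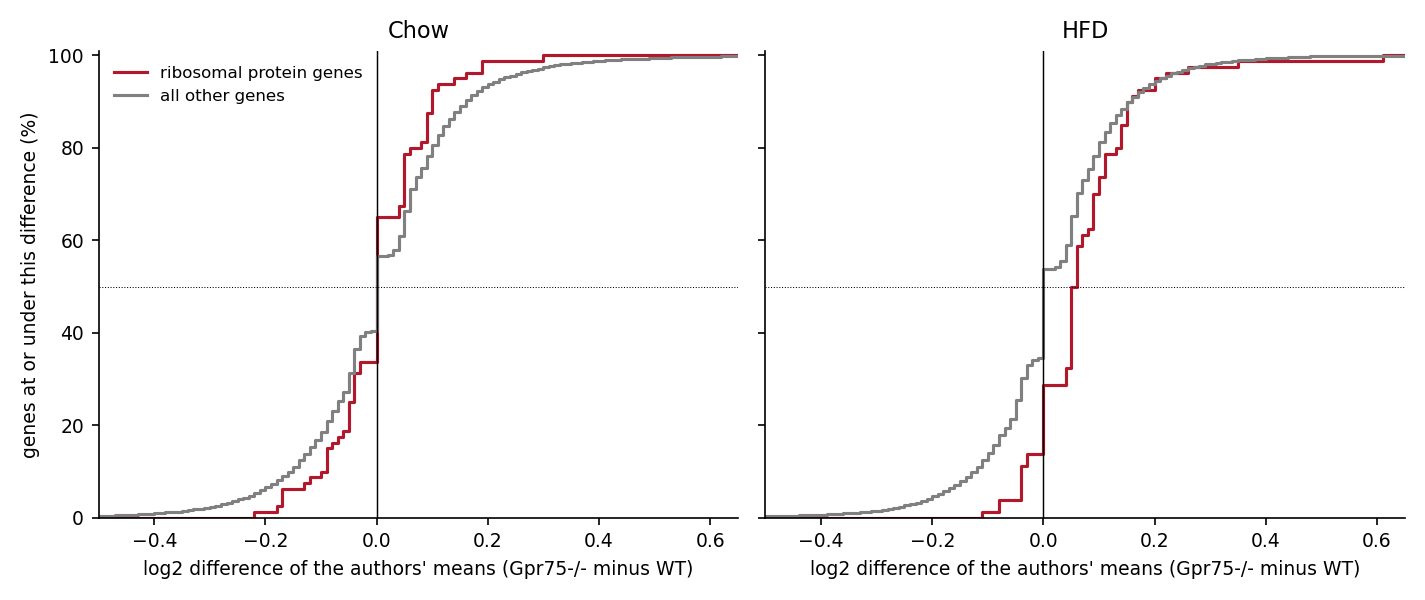
Share of genes at or under each log2 difference (y axis, %) for the ribosomal protein genes in red and all other genes at the level filter in grey, on each diet. On chow both curves cross 50% at 0. On the HFD the red curve crosses it near 0.05.

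*Rpl7a* stood apart on the HFD. It encodes a large subunit protein and, like *Rpl13a*, carries small nucleolar RNAs in its introns. The mean of *Rpl7a* was 5.68 CPM in WT and 8.65 CPM in *Gpr75*-/- mice, a difference of 0.61, or 1.52-fold, with a rounding range from 0.58 to 0.63. Its mean normalized count on the HFD, 143.9, is above what these means amount to. The gap on the deposited scale, 0.034, is the largest among the ribosomal protein genes at the level filter. The columns used do not show whether 1 library stands apart. *Rpl13a* had 5.23 and 6.64 CPM, a difference of 0.35, and *Rpl30* 16.7 and 19.9 CPM, a difference of 0.25. *Rpl7a* and *Rpl13a* are among the genes with the lowest levels per length. Of the 5 genes with the highest, *Rpl4* had 225.2 and 235.0 CPM, a difference of 0.06, *Rpl3* 0.06, *Rpl41* 0.05, *Rpl13* 0.00 and *Rps29* 0.14. After *Rpl30* came *Rpl21* (0.21), *Rps12* (0.19) and *Rplp1* (0.19), an acidic protein of the stalk that recruits elongation factors. The other genes at least 1.1-fold higher were *Rps20* (0.17), *Rpl36* (0.16), *Rps14* (0.15), *Rps29* (0.14), *Rpl37* (0.14), *Rpl19* (0.14) and *Rps19* (0.14). The lowest genes were *Rps27l* (-0.11), *Rpl39* (-0.08), which lines the peptide tunnel, *Rpl34* (-0.08), *Rpl23* (-0.05), *Rpl15* (-0.05) and *Rps27a* (-0.05), which encodes ubiquitin fused to a small subunit protein. Across the 80 genes the difference on the HFD went with neither the mean count (Spearman's rho 0.00) nor transcript length (rho -0.04), which is a description over genes of the same libraries. On chow the difference had a rho of 0.30 with the unique share over the 80 genes, and of 0.04 on the HFD. With the difference of their own pseudogenes, over 43 genes, rho was -0.04 on chow and -0.37 on the HFD. Reads assigned to a gene or to its copies enter both of these measures.

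*Rpl7a* (ENSMUSG00000062647) is at chr2:26800776-26803330 and *Rpl13a* (ENSMUSG00000074129) at chr7:44774982-44778185 on build GRCm39, *Rpl30* (ENSMUSG00000058600) is at chr15:34440651-34443786 and *Rpl13* (ENSMUSG00000000740) at chr8:123829089-123831983. The group as a whole lies on 19 chromosomes.

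The small and the large subunit genes had nearly equal medians on each diet. On chow the 33 small subunit genes and the 47 large subunit genes each had a median of 0, with means of 0.0046 and -0.0036. The mean was higher in *Gpr75*-/- mice for 13 small subunit genes (39.4%) and lower for 8 (24.2%), and higher for 15 large subunit genes (31.9%) and lower for 19 (40.4%), against 43.3% and 40.4% of all genes. On the HFD the medians were 0.05 and 0.05, with means of 0.06 and 0.07. There, 25 of 33 small subunit genes (75.8%) and 32 of 47 large subunit genes (68.1%) were higher, against 46.3% of all genes, 4 and 7 were lower, and 5 and 8, or 15.2% and 17%, were at least 1.1-fold higher, against 11.8% of all genes. The difference between the subunits' medians was 0.001 on the HFD, small minus large. The SD over genes was 0.07 in the small and 0.12 in the large subunit, and the wider spread of the latter held *Rpl7a* and *Rpl13a*.

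Groups of neighbouring proteins were read in the same way. The 5S ribonucleoprotein, made of *Rpl5* and *Rpl11*, whose free proteins bind MDM2 when assembly fails, had differences of -0.05 and 0.00 on chow and 0.00 and 0.14 on the HFD. Of the 4 genes of the P stalk on the HFD, *Rplp1* had 0.19, *Rplp2* 0.09, *Rplp0* 0.00 and *Rpl12* -0.04, so that the median was 0.05, against 0.02 on chow. The 8 proteins at the rim of the peptide exit tunnel had a median of 0.08 on the HFD, with 6 higher and 2 lower, and 0 on chow, with 1 higher and 3 lower. The 6 proteins at the entry and exit of the mRNA had 0.10 and 0.06, with 5 of 6 and 4 of 6 higher. The 17 genes at the level filter that are mutated in Diamond-Blackfan anemia, a failure of red cell formation, had medians of 0.05 on the HFD, with 12 higher and 1 lower, and 0.04 on chow, with 9 higher and 3 lower. *Rps19*, the gene most often affected in that disease, had 49.7 CPM in WT and 54.7 CPM in *Gpr75*-/- mice on the HFD and 46.6 and 49.7 CPM on chow. *Rps6*, the protein that S6 kinases phosphorylate, had 0.05 on the HFD and -0.05 on chow. *Rpsa*, which is also a laminin receptor, had 0.10 and -0.10. These lists are parts of the whole group and small, so their medians and counts are descriptions, to be read against the 46.3% of all genes that were higher and 34.4% that were lower on the HFD, and 43.3% and 40.4% on chow.

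The duplicated genes followed no common pattern beside their parents. *Rpl22l1* had a difference of 0.04 on both diets and *Rpl22* 0.00 on chow and -0.04 on the HFD. The paralog was the higher of the pair per length, at 46.9 against 12.2 CPM per kilobase on chow. *Rpl7l1*, whose protein acts in ribosome assembly, had 0.05 on chow and 0.10 on the HFD, and *Rpl7* 0.05 and 0.10. *Rps27l*, a target of p53, had 0.00 and -0.11, where *Rps27* had 0.04 and 0.09. *Rps27* and *Rps27rt*, an intronless copy, share most of their sequence with other genes, with unique shares of 1.63% and 10.5%, and *Rps27rt* had -0.07 on chow and 0.03 on the HFD. *Rpl36al* was under the level filter on both diets, at 36.2 and 46.4 counts, and its parent *Rpl36a* had -0.08 and 0.00. *Rpl3l*, *Rpl10l* and *Rpl39l* were not analysed here, and *Rps4l* is annotated as a pseudogene. *Rps19bp1* had 0.03 and 0.00.

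Among the ribosomal protein genes left out by their names, *Fau*, a fusion of a ubiquitin-like and a small subunit protein, had 0.00 on chow and 0.05 on the HFD. *Rack1*, a scaffold on the small subunit, had -0.05 and 0.00.

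The HFD and chow comparisons share no mice. Of the 80 genes at the level filter on both diets, 23 had a higher mean in *Gpr75*-/- mice on both and 4 a lower one on both. Another 18 were lower on chow and higher on the HFD, 1 was higher on chow and lower on the HFD, and 34 were equal on at least 1 diet. The difference was larger on the HFD than on chow for 61 genes and smaller for 16, with a median gap of 0.05. Over all 14112 genes at the level filter on both diets the median gap was 0.00, with 7191 larger and 6116 smaller on the HFD. *Rpl7a*, *Rpl30*, *Rps12* and *Rpl13a* were high on both. *Rpl23a*, *Rps15* and *Rpl17*, among the lowest on chow, were at 0.08, 0.09 and 0.07 on the HFD, and *Rpl15* was the gene with opposite signs the other way, at 0.10 and -0.05. Across the 80 genes Pearson's r between the diets was 0.45 and Spearman's rho 0.35, against 0.16 and 0.15 across all genes. These are correlations over genes, which are not independent, and rounding steps and shared sequences enter both diets alike.

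**Figure D3:**
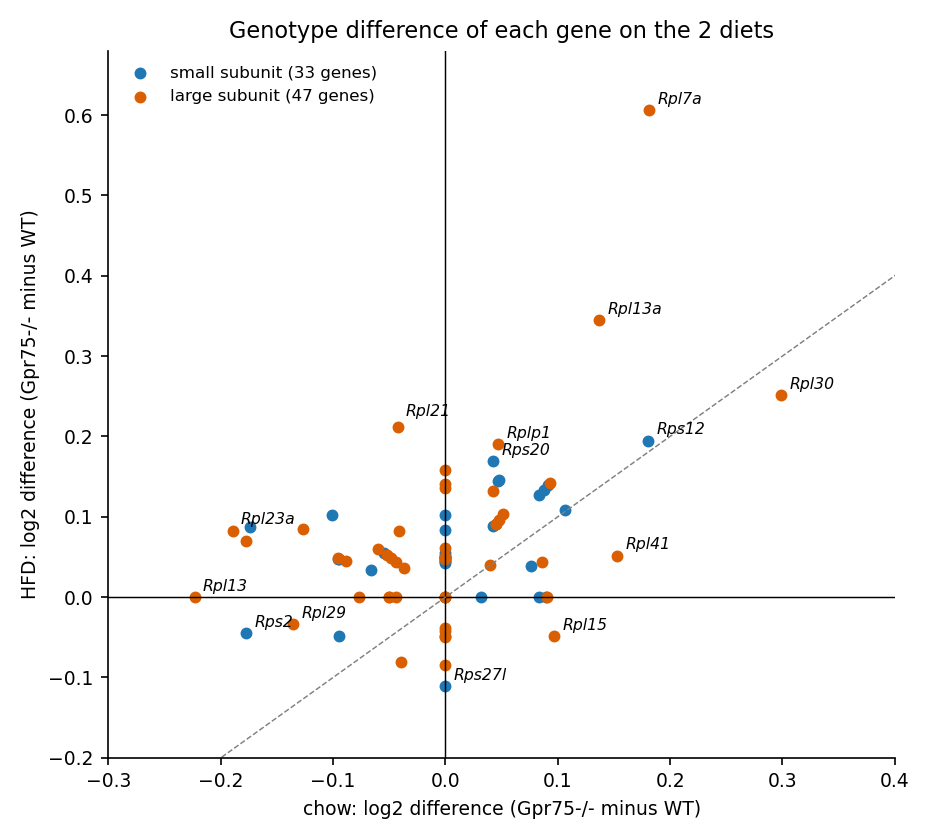
Log2 difference, *Gpr75*-/- minus WT, of each of 80 ribosomal protein genes on chow (x axis) and on the HFD (y axis), coloured by subunit, with equality dashed. More points lie above the dashed line than under it, 61 against 16, and *Rpl7a*, *Rpl13a* and *Rpl30* lie to the upper right.

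Processed copies of the genes were listed as separate rows. Of pseudogenes named after a ribosomal protein gene, 64 on chow and 71 on the HFD passed the level filter. They leaned in the same direction as the genes on the HFD, with a median of 0.11. Of the 71, 56 were higher, 78.9% against 46.3% of all genes, 11 were lower, and 29 were at least 1.1-fold higher, 40.8% against 11.8% of all genes. On chow the median was 0.03, with 36 higher, 56.3% against 43.3% of all genes, and 22 lower, and 25% were at least 1.1-fold higher and 21.9% lower, against 12.4% and 12.7% of all genes. Nearly all of these pseudogenes had under 500 counts, and the share past 1.1-fold depends on the level. Of all genes at 500 counts or more, 4.30% were at least 1.1-fold higher on the HFD. For the genes at the ends of the order, gene and copies often differed. On chow *Rpl30* had 0.30 and its copies added up -0.37, with *Rpl30-ps10* at -0.65. *Rps12* had 0.18 and its copies -0.23, and *Rpl7a* 0.18 and its copies -0.14. *Rpl13*, the lowest gene on chow, had -0.22 and its copies 0.13. On the HFD *Rpl7a* had 0.61 and its 3 copies -0.06, and *Rps12* 0.19 and its copies -0.01. Other genes at least 1.1-fold higher there shared the sign of their copies. These were *Rpl30* (0.25 and 0.10), *Rpl21* (0.21 and 0.05), *Rpl36* (0.16 and 0.14), *Rpl19* (0.14 and 0.17) and *Rps19* (0.14 and 0.02). *Rpl39*, *Rpl34*, *Rpl15* and *Rps27a*, among the lowest, had copies above 0. When each gene was added to its copies, *Rpl7a* came to -0.06 on chow and 0.17 on the HFD, *Rps12* to -0.08 and 0.08, and *Rpl30* to 0.04 and 0.19. *Rpl13a*, with no listed copy named after it, stayed at 0.14 and 0.35. Over all 80 genes with their copies added, 65 (81.25%) were higher and 10 (12.5%) lower on the HFD, with a median of 0.05. Over all genes the shares were 46.3% and 34.4%. Adding copies leaves fewer genes with equal means, of which there were 12 without copies. At least 1.1-fold higher were 11 and lower 0. The 11 are 13.8%, near the 11.8% of all genes. On chow 36 (45%) were higher and 32 (40%) lower, against 43.3% and 40.4% of all genes. There, 1 was at least 1.1-fold higher and 3 lower, against 12.4% and 12.7% of all genes.

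**Figure D4:**
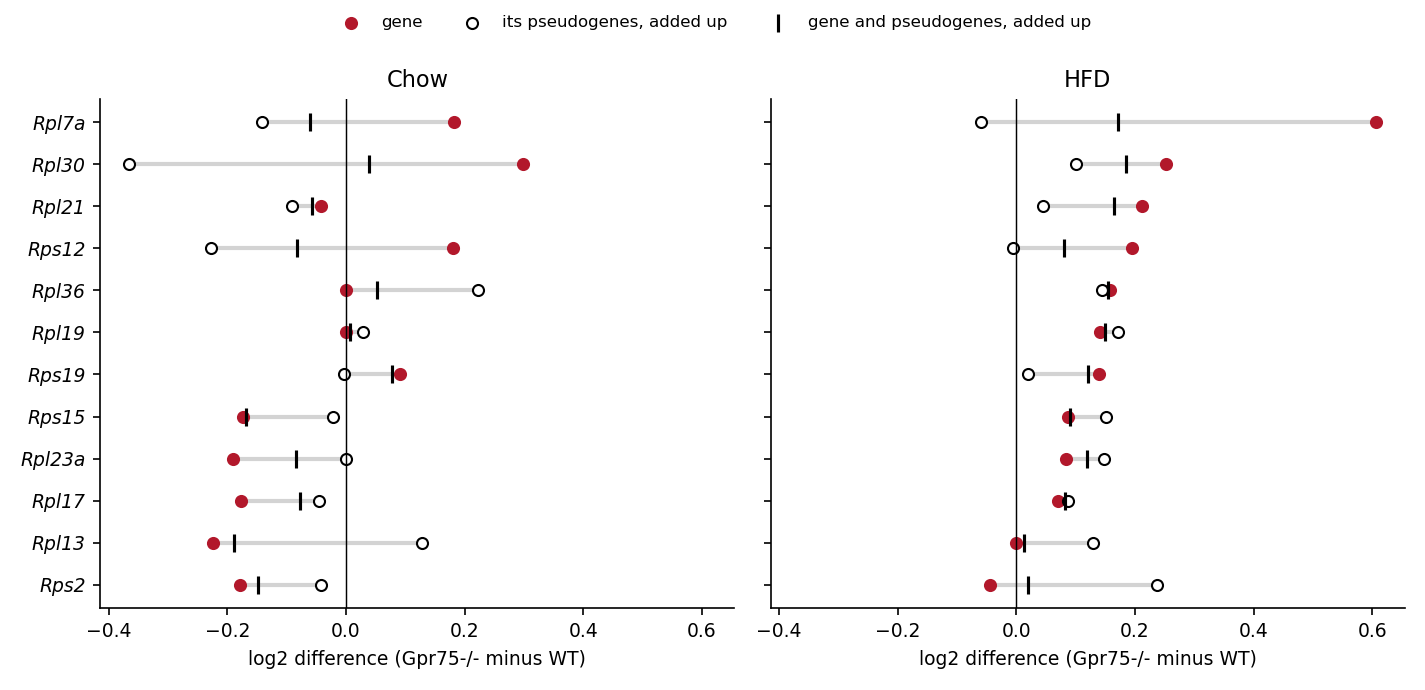
Log2 difference, *Gpr75*-/- minus WT (x axis), for the 12 genes (y axis) with listed copies that were at least 1.1-fold apart on a diet. Filled points are the gene's own row, open points its pseudogenes added up, and ticks both together. *Rpl7a*, *Rps12*, *Rpl30* and *Rpl13* lie on the opposite side of 0 from their copies on chow, as does *Rps19*, whose copies are near 0.

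Genes with sequence of their own were read separately. Of the 80, 55 have at least 50% of their 100-base stretches in no transcript of another gene. Their median on the HFD was 0.05 and their mean 0.06, with 40 higher (72.7% against 46.3% of all genes), 8 lower (14.5% against 34.4%) and 8 at least 1.1-fold higher (14.5% against 11.8%). The 25 others had a median of 0.05 and a mean of 0.08, with 17 higher and 3 lower. On chow the 55 had a median of 0 and a mean of 0.01 and the 25 a median of -0.05 and a mean of -0.03. Of the genes with a lower mean on chow, 14 were among the 55 and 13 among the 25. The part of shared sequence in these values was not tested.

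Other parts of the translation machinery were taken from lists, whose counts stand against 46.3% of all genes higher and 34.4% lower on the HFD and 43.3% and 40.4% on chow. On the HFD the median over 18 other TOP mRNAs, for elongation and initiation factors and their partners, was 0.05, with 11 higher and 1 lower, against 0 on chow, with 3 higher and 6 lower. *Eef1a1*, the elongation factor that brings tRNAs, had 0.07 on the HFD and 0.00 on chow, and *Eef2*, which moves the ribosome along, 0.06 and -0.06. The 77 mitochondrial ribosomal protein genes had a median of 0.04 on the HFD, with 41 (53.2%) higher and 15 (19.5%) lower, and 0 on chow. The 26 ribosome assembly factors had 0.02, with 13 (50%) higher and 7 (26.9%) lower, and -0.02 on chow. The 11 genes of mTORC1 and the S6 kinases at the level filter had a median of 0 on both diets, with *Rptor*, the subunit that binds substrates, at 0.23 on the HFD. The 13 mitochondrially encoded genes had 0 on the HFD and -0.08 on chow.

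**Figure D5:**
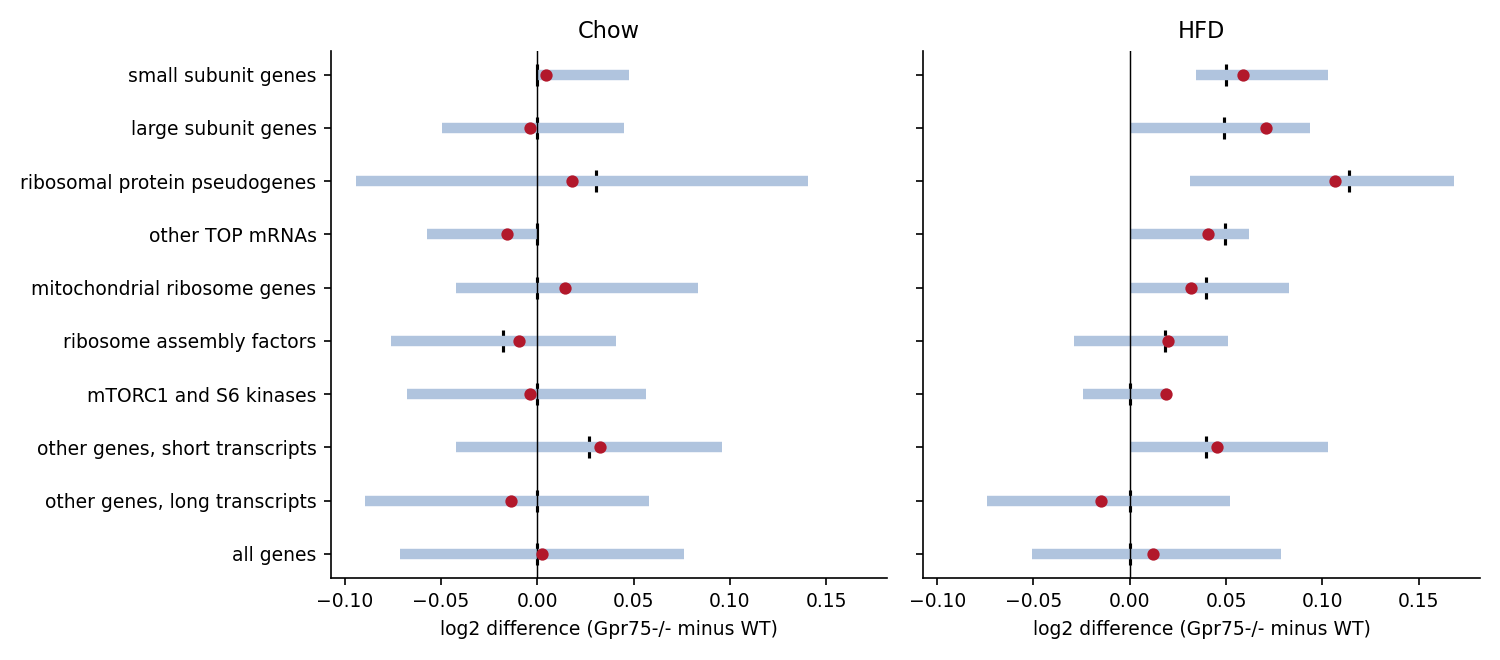
Log2 difference, *Gpr75*-/- minus WT (x axis), for gene lists (y axis) on each diet. Ticks are medians, red points means and bars the range from the lower to the upper quartile over genes, not an error. Medians on the HFD are above 0 for both subunits, the pseudogenes, other TOP mRNAs, mitochondrial ribosome genes, assembly factors and other short transcripts. Chow medians are at 0 for both subunits, other TOP mRNAs and mitochondrial ribosome genes. They are above 0 there for the pseudogenes and other short transcripts and under 0 for assembly factors.

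Short transcripts in general leaned upwards too. The 632 other protein-coding genes with a principal transcript under 1000 bases had a mean of 0.05 on the HFD, with 56% higher and 24.5% lower, and the 4214 with 4000 bases or more had -0.01, with 35.9% higher and 43.2% lower. On chow the means were 0.03 and -0.01. The part of transcript length in the result was not tested. Markers of cell types differed between the genotypes as well. All 10 oligodendrocyte markers were lower in *Gpr75*-/- mice on both diets, with summed levels of 11704 CPM in WT and 9994 CPM in *Gpr75*-/- mice on chow and 12322 and 10547 CPM on the HFD. Of 12 hypothalamic markers at the level filter, 11 were higher and 0 lower on the HFD, with a median of 0.30 and summed levels of 808.5 and 969.7 CPM, and on chow 8 of 13 were higher, with a median of 0.05. The defining peptides *Pmch*, *Hcrt*, *Oxt* and *Avp* were present in all groups. Red blood cell markers summed to 277.1 and 443.2 CPM on chow, higher for 5 of 5, and to 313.9 and 280.2 CPM on the HFD, lower for 5 of 5. Of the choroid plexus markers, *Ttr* had group means of 2.48 log2 CPM in WT and 3.69 log2 CPM in *Gpr75*-/- mice on chow, and *Kcne2* was listed at 0 in WT. The mean normalized count of *Ttr* on chow, 2910, is above what these means amount to, and the columns used do not show whether 1 library stands apart. On the HFD *Ttr* had 1.85 and 0.43 log2 CPM and was not at the level filter. Of the 3 choroid plexus markers that were, 2 were higher and 1 lower, with a median of 0.11. On chow all 6 at the filter were higher, with a median of 1.11. The medians of the 8 neuronal markers were 0 on chow and -0.05 on the HFD, of the 7 astrocyte markers 0.05 and 0, of the 8 microglial markers -0.02 and -0.05, of the 7 endothelial markers -0.07 and -0.09, and of the 7 ependymal and tanycyte markers 0.07 and -0.18. In bulk tissue, fewer cells of a type and less RNA per cell cannot be told apart, and the part of these markers in the ribosomal protein differences was not tested.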

How the data were processed

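Total RNA of the hypothalamus was made into libraries with a SMART-Seq mRNA kit and sequenced in paired reads. The authors analysed reads within the Astrocyte platform, and each diet had its own DESeq2 run. The submitters' processing notes name STAR, featureCounts, StringTie, DESeq2 and GRCm39, with no versions or roles. The signal deposited for each gene is the mean normalized count over the 6 mice of a diet. The group means that the authors deposited are on a log2 scale. Their values match log2(1 + log2 CPM), cut off at 0 and rounded to 2 decimals: 96.9% of genes on chow and 97.4% on the HFD with a mean count of at least 50 lay within 0.02 of the value computed from the mean count. They were converted back to log2 CPM. The mean appears to have been taken over log values. The tables also hold the authors' fold changes, standard errors, statistics and p-values, which were not used.

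The difference of a gene is the *Gpr75*-/- mean minus the WT mean in log2 CPM. The conversion was tested on simulated data. Tests on counts of single mice had been planned in case the tables held them, and they hold 0 such columns, so nothing was tested and no interval is given. The 3 mice per group were separate samples by their labels. Each diet's table has its own normalization, so no level was set against one of the other diet. Lengths and shared 100-base stretches came from the principal transcripts of GENCODE M21, matched by gene identifier, and promoters from RefSeq (GRCm38.p6). Levels per length and length classes used the median length over a gene's principal transcripts, or over all its transcripts where none was principal. Printed lengths of ribosomal protein genes, and their shared stretches, are those of the longest principal transcript. Python 3.11.15, numpy 2.4.6, pandas 2.3.3 and matplotlib 3.10.9 were used.

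The members, gene lists and alternatives were chosen with earlier results of these data known. Named genes were the 6 highest and 6 lowest differences and the 5 highest and 5 lowest levels on each diet, the paralogs with their parents, and a set list of single genes. The other genes at least 1.1-fold higher on the HFD and the genes compared between diets were named after their values were seen. Some results for a single gene are left out here.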

Additional observations from a re-analysis of the deposited data

How the results depend on the processing

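The median difference of the group on the HFD, 0.05, lay between 0.04 and 0.07 under no filter, a level of at least 500, other centrings and scalings, a pseudocount of 1 CPM, other member lists and the mean in place of the median, and on chow it stayed within 0.01 of 0. The difference between the subunits was run under both filters, means, the pseudocount and other member lists. It stayed within 0.02 of 0, and on the HFD its sign changed with means (-0.01) and with the genes left out by name added. The gap between the diets was run under both filters and 1 centring, and was 0.05 in each. Counts of genes past a fold, and shares, moved. On chow the 4 genes higher and 5 lower by 1.1-fold became 16 and 14 with 5% in place of 10% as the difference that counts, 1 and 0 with 20%, where 26.3% and 25.1% of all genes passed 5% and 3.56% and 3.41% passed 20%, 1 and 3 at a level of at least 500, 1 and 3 with pseudogenes added, and 2 and 2 among genes with mostly unique sequence, of which 14 had a lower mean. On the HFD the 13 higher and 0 lower became 30 and 3 with 5%, 2 higher with 20%, where 27.0% and 19.3% of all genes passed 5% and 2.74% and 2.30% passed 20%, and 8 higher among genes with mostly unique sequence. Over protein-coding genes alone the shares of all CPM were 0.448% in WT and 0.446% in *Gpr75*-/- mice on chow, and 0.454% and 0.472% on the HFD. The alternatives with pseudogenes added, with unique sequence, with the mean over all members and with centring on the mean were chosen after seeing the data. No paired analysis was possible because the tables hold 1 mean per group. Leaving out each mouse and tests of counts with edgeR or DESeq2 were not run for the same reason. Rounding to 2 decimals limits single genes to steps of about 0.05, and how reads that match several genes were counted is not given in the sources used here.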
